A study of Mus musculus with 7 samples.

Results

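The collagen genes were taken as every protein-coding gene in the count files whose GENCODE M21 mouse symbol is Col followed by a number, the letter a and a number. This rule found 44 genes among 46603 genes in all, of which 21624 are protein-coding. They were grouped as 11 fibrillar collagen genes, 6 basement membrane collagen genes and 27 other collagen genes. The tumors were grown in female nude mice, 16 weeks old and without a thymus, from mouse embryonic fibroblasts (MEFs) injected under the skin of the flank and kept for up to 30 days by the labels, while the paper's methods give a shorter time and its results the mammary pad as the site. The KO group had MEFs from which nuclear myosin 1 (NM1) had been deleted with CRISPR/Cas9, and the KO+NM1 group had these same KO cells with NM1 returned. The returned NM1 came on a lentiviral vector as a fusion with HA and V5 tags, and the cells were selected with neomycin as clones. Both groups carry the NM1 deletion. The libraries analysed here came from 3 KO pieces and 4 KO+NM1 pieces. The labels describe 1 tumor of each kind cut into 4 pieces, though the methods write of tumors. With 1 tumor of each kind, the SDs and tests hold no difference between mice.

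Collagens are proteins in which chains wind around each other into a helix. Fibrillar collagens such as types I, III and V line up into the fibrils that give connective tissue its strength, type IV forms the sheet-like network of basement membranes under epithelia and around vessels, muscle and fat cells, and the remaining types sit on the fibrils, anchor them, form fine filaments or span the cell membrane. Fibroblasts are a main source of fibrillar collagen in connective tissue and in tumors. Most collagens are built from chains of more than one gene, so the levels of partner chains are given side by side.

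The values are CPM, the reads of a gene for every 1000000 reads counted, after scaling by the trimmed mean of M values (TMM). A gene was called higher or lower in KO when the quasi-likelihood test of edgeR fell under an adjusted p of 0.05, with adjustment over the 16887 genes that were tested, and the fold change was at least 2-fold. Log2 fold changes are KO minus KO+NM1, so a positive value is a higher level in the KO pieces. Libraries held 24088309 to 28326568 counts. After the scaling, 3 counts, the limit that a count of 0 allows, are about 0.1 to 0.148 CPM, for counting error only. Genes of the mitochondrial genome took 1.81% to 2.14% of the counts in KO and 5.11% to 18.5% in KO+NM1. Myo1c, the gene that encodes NM1 and its isoforms, was at 289 to 313 CPM in KO and 382 to 438 CPM in KO+NM1, and gene counts cannot tell the isoforms apart. KO+NM1 piece 01 stood apart from the other 3 KO+NM1 pieces, with a correlation of log2 CPM of 0.855 to 0.861 to them where they reached 0.977 to 0.986 among themselves, so the counts of collagen genes called are given with and without it. In a piece of tumor, fewer cells of a type and less RNA per cell cannot be told apart, and neither can RNA of the injected cells and of the host.

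The collagen genes did not move in 1 direction. Of the 39 that passed the filter on low counts, 3 were called higher in KO, 11 were called lower and 25 were not called. The share of all genes tested was 17.1% for higher calls and 20.3% for lower calls, against 7.69% and 28.2% of the tested collagen genes. The genes called higher were Col12a1, Col7a1 and Col24a1. The genes called lower were Col9a1, Col9a2, Col9a3, Col4a6, Col25a1, Col15a1, Col13a1, Col20a1, Col28a1, Col27a1 and Col6a6. Col9a1, Col9a2 and Col25a1 passed the filter only through the KO+NM1 libraries, and Col24a1 through the KO libraries, the groups where they are high. Their calls and lack of overlap are therefore no independent support, and the counts and shares in this paragraph include them. With library size alone as the scaling, 5 were higher, with Col1a1 and Col8a1 added, and 10 were lower. Without KO+NM1 piece 01, 6 were higher and 18 were lower, against 21.7% and 25.1% of all genes tested without that piece. Among these, Col6a4 passed the filter only through the KO libraries and Col4a3 only through the KO+NM1 libraries. The median log2 fold change was -0.66 over the 39 genes, 0.27 over the 10 tested fibrillar genes, -1.23 over the 6 basement membrane genes and -0.66 over the 23 tested other genes, where the median of all genes tested was -0.002. The pieces of the groups did not overlap for 15 of the 39 genes. All KO pieces were above all KO+NM1 pieces for 5 of them, against 30.5% of all genes tested, and below for 10, against 26.4%. The other 5 members, Col2a1, Col10a1, Col19a1, Col22a1 and Col26a1, were too low to be tested.

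**Figure D1:**
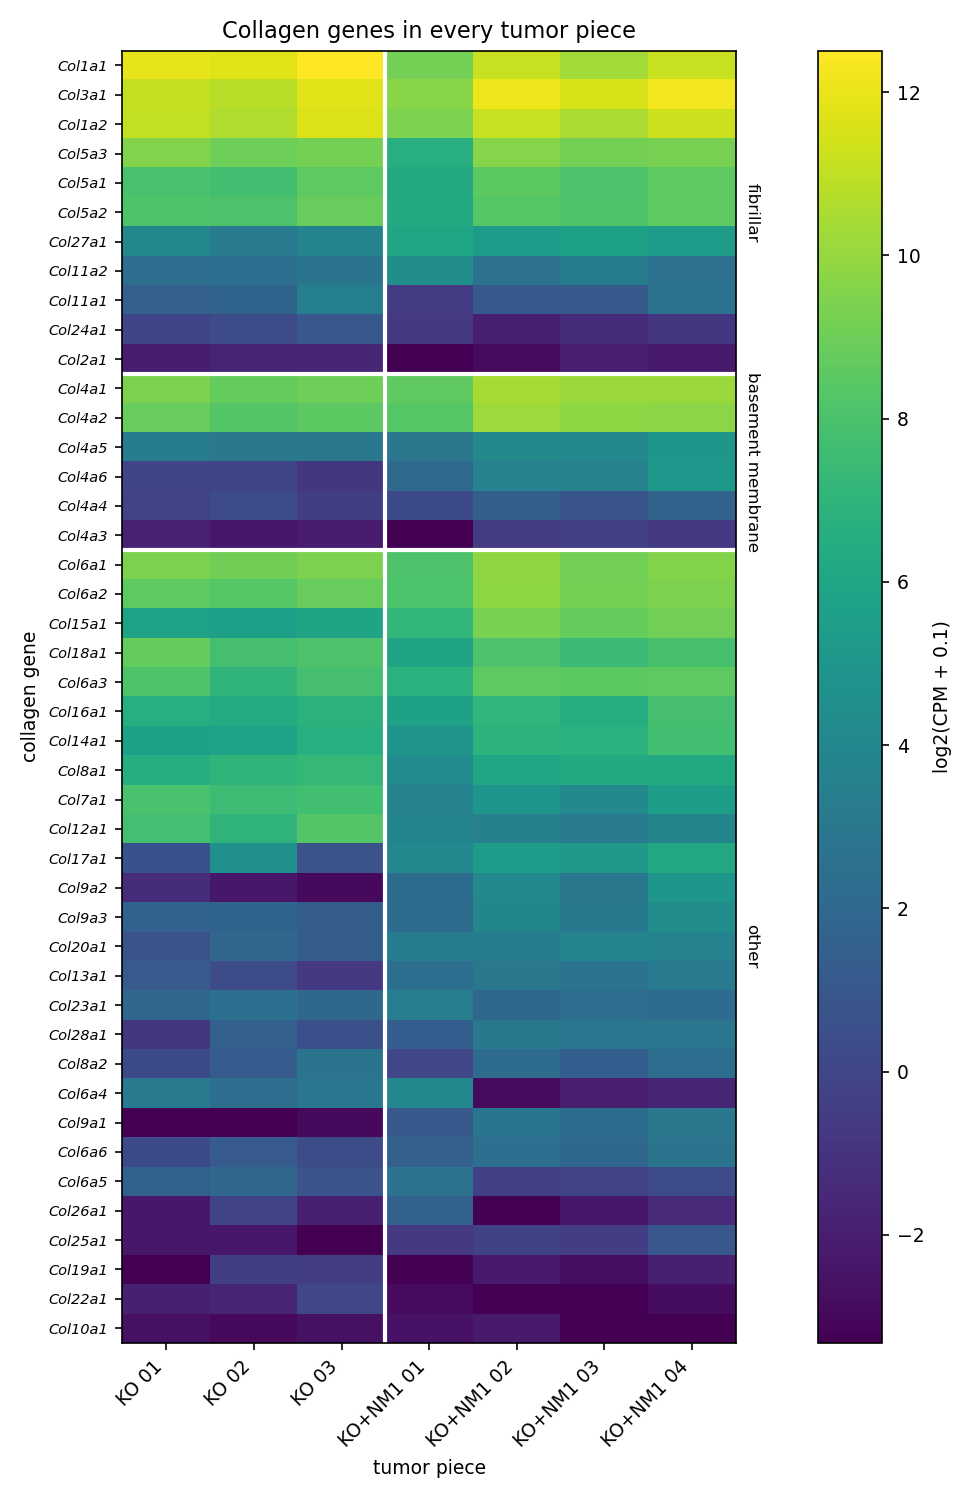
Level of the 44 collagen genes in each of the 7 tumor pieces, as log2(CPM + 0.1), with genes in rows by group and in order of their mean reads per kilobase, and pieces in columns. Colors compare pieces within a row, and the fibrillar genes of the upper rows are darker in KO+NM1 piece 01 than in the other pieces.

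The fibrillar genes held most of the collagen reads in every piece, from 57.3% to 79.9% of them. Of 11 fibrillar genes, 10 were tested, 1 was called higher in KO, 1 was called lower and 8 were not called. Of all genes tested, 17.1% were called higher and 20.3% lower. Without KO+NM1 piece 01 the fibrillar counts were 2 higher and 1 lower, against 21.7% and 25.1% of all genes. Col1a1 (ENSMUSG00000001506), the alpha 1 chain of type I collagen at chr11:94936224-94953042 of GRCm38, was at 3823, 3441 and 5827 CPM in KO pieces 01 to 03. It was at 589, 2308, 1281 and 2331 CPM in KO+NM1 pieces 01 to 04, so that all KO pieces were above all KO+NM1 pieces. The change, 1.42 on the log2 scale (SE 0.51), had an adjusted p of 0.0514 by edgeR's quasi-likelihood test and missed the call. Without KO+NM1 piece 01 the log2 fold change was 1.02 with an adjusted p of 0.0204, and the gene was called higher. Col1a2, the alpha 2 chain that joins Col1a1 chains in type I collagen, was at 2118, 1582 and 3202 CPM in KO and 656, 2327, 1472 and 2572 CPM in KO+NM1. These pieces overlapped, with a log2 fold change of 0.39 (SE 0.50) and an adjusted p of 0.544 by edgeR. Col3a1, the chain of type III collagen, which shares fibrils with type I in soft tissue, was at 2264, 1780 and 3375 CPM in KO and 817, 4505, 3049 and 4752 CPM in KO+NM1. The log2 fold change was -0.41 (SE 0.59), with an adjusted p of 0.597 by edgeR. KO piece 03 was the highest of the 7 for Col1a2, and KO+NM1 pieces 02 and 04 were above every KO piece for Col3a1. KO+NM1 piece 01 was the lowest of the 7 for all of Col1a1, Col1a2 and Col3a1.

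Type V collagen, which sits inside type I fibrils and sets their width, showed no call in any of its 3 chains. Col5a1 was at 248, 211 and 390.1 CPM in KO and 80.0, 373, 268 and 382 CPM in KO+NM1, with a log2 fold change of 0.04 (SE 0.52). Col5a2, which lies next to Col3a1 on chromosome 1, was at 290, 269 and 458 CPM in KO and 81.8, 328, 288 and 390.1 CPM in KO+NM1, with a log2 fold change of 0.32 (SE 0.50). Col5a3 was at 731, 516 and 591 CPM in KO and 103, 803, 580.0 and 602 CPM in KO+NM1, with a log2 fold change of 0.23 (SE 0.59). The KO pieces lay inside the range of the KO+NM1 pieces for Col5a3, and for Col5a1 and Col5a2 only KO piece 03 was above it. Adjusted p-values of the 3 chains were 0.619 to 0.959 by edgeR.

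Of the minor fibrillar chains, Col27a1, a chain known from cartilage, was called lower in KO. It was at 16.2, 9.66 and 13.8 CPM in KO and 62.6, 42.2, 52.4 and 41.6 CPM in KO+NM1, a log2 fold change of -1.91 (SE 0.23) with an adjusted p of 0.00127 by edgeR. Col24a1, a chain known from bone, was called higher at a low level. It passed the filter on low counts through the KO libraries, as KO+NM1 pieces 02 and 03 held 4 and 6 counts. It was at 0.900, 1.11 and 1.88 CPM in KO and 0.511, 0.163, 0.296 and 0.493 CPM in KO+NM1, a log2 fold change of 1.81 (SE 0.49) with an adjusted p of 0.0190 by edgeR. The KO pieces were all above the KO+NM1 pieces for Col24a1, and its call ended without KO piece 02 (adjusted p 0.0538 by edgeR) or KO piece 03 (adjusted p 0.105 by edgeR). Col11a1 and Col11a2, chains of type XI collagen, were at 22.9 CPM or less in every piece and were not called. Col2a1, the chain of type II collagen of cartilage, had 0 to 7 counts in each library.

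**Figure D2:**
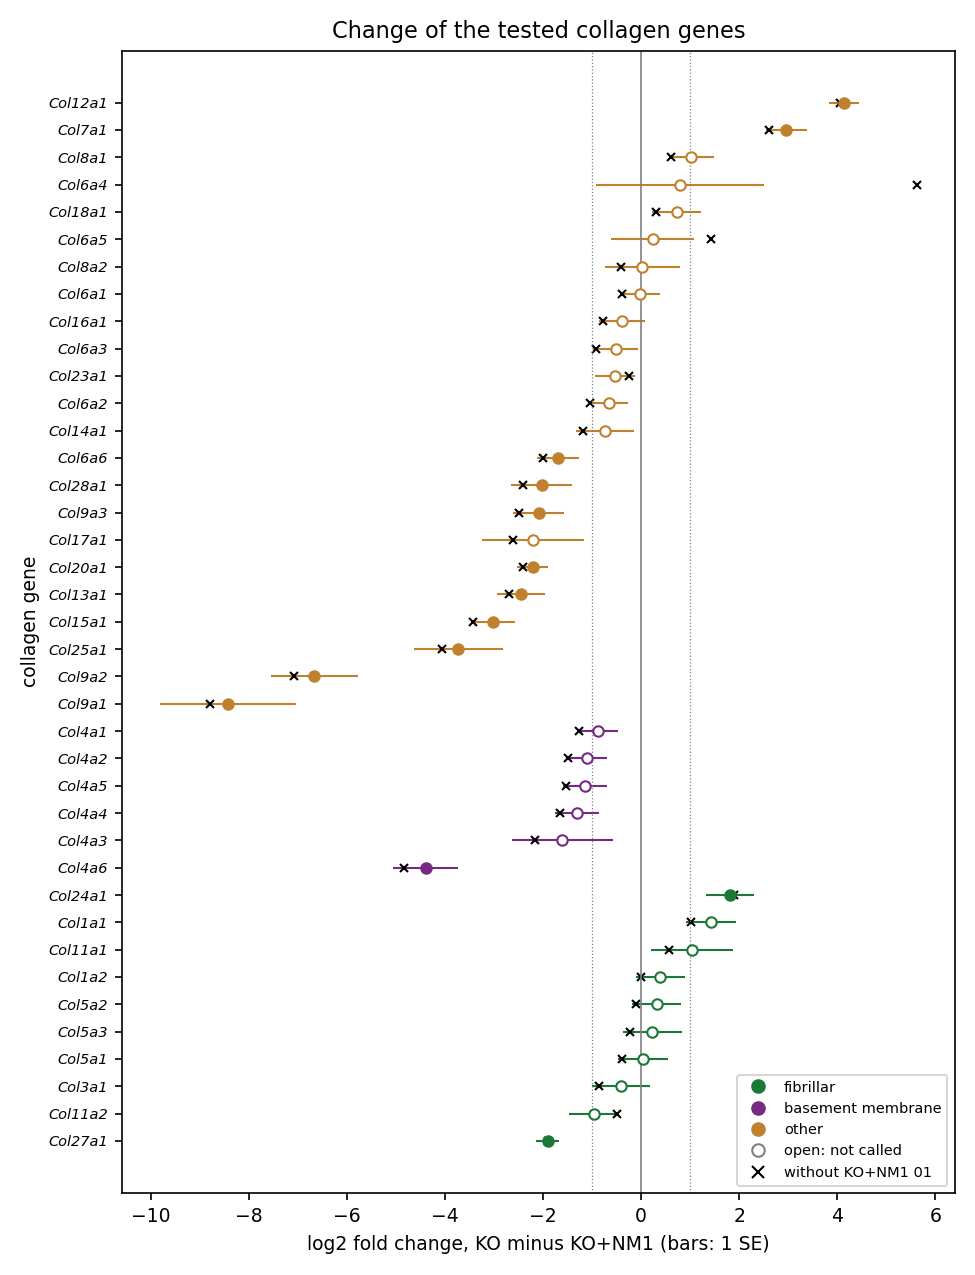
Log2 fold change of the 39 tested collagen genes, KO minus KO+NM1, with bars of 1 SE. Filled points were called, open points were not, crosses give the value without KO+NM1 piece 01, and dotted lines mark a 2-fold change. The 6 basement membrane crosses lie at -1.27 to -4.84.

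Of the 6 genes of type IV collagen, the collagen of basement membranes, 1 was called lower in KO with all pieces, Col4a6, and none higher. Without KO+NM1 piece 01 all 6 were called lower by edgeR. Col4a3, with 3 to 6 counts in the KO libraries, passed the filter on low counts only through KO+NM1 pieces 02 to 04. Its call is therefore no independent support. The shares of all genes called lower were 20.3% with all pieces and 25.1% without that piece. Col4a1, which with Col4a2 makes the common type IV network, was at 682, 429 and 519 CPM in KO and 403, 1372, 1110 and 1114 CPM in KO+NM1. Its log2 fold change was -0.88 (SE 0.41) with an adjusted p of 0.122 by edgeR, and -1.27 with an adjusted p of 0.00105 without KO+NM1 piece 01. Col4a2 was at 456, 305 and 364 CPM in KO and 324, 1143, 888 and 875 CPM in KO+NM1. Its log2 fold change was -1.11 (SE 0.41) with an adjusted p of 0.0628 by edgeR, and -1.496 with an adjusted p of 0.000389 without that piece. For both genes KO+NM1 pieces 02 to 04 were above every KO piece, and KO+NM1 piece 01 was inside or below the KO range.

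Col4a5 and Col4a6 (ENSMUSG00000031273) encode chains found together in basement membranes of smooth muscle and epithelia, and they lie head to head on the X chromosome. Col4a5, at chrX:141475385-141689234 of GRCm38, was at 9.87, 7.65 and 7.73 CPM in KO and 7.66, 17.1, 16.6 and 33.0 CPM in KO+NM1. Its log2 fold change was -1.14 (SE 0.45) with an adjusted p of 0.0772 by edgeR. Col4a6, at chrX:141165403-141474076 on the minus strand, was at 0.900, 0.904 and 0.495 CPM in KO and 4.30, 13.0, 13.0 and 34.8 CPM in KO+NM1. All KO pieces of Col4a6 were below all KO+NM1 pieces, a 21.1-fold difference with a log2 fold change of -4.40 (SE 0.66) and an adjusted p of 0.00362 by edgeR. Markers of pericytes and smooth muscle summed to 153 to 226 CPM in KO and 810 to 1742 CPM in KO+NM1, and their part in the result was not tested. Col4a3 and Col4a4, chains known from kidney and lung, were at 3.21 CPM or less in every piece and were not called with all pieces.

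The starts of these pairs are shown because the genes of a pair point away from a shared stretch of DNA. Starts of Col4a6 and Col4a5 are 1309 bases apart, those of Col4a4 and Col4a3 are 72 bases apart, and those of Col4a1 and Col4a2 are 21 bases apart with overlapping genes. Sequences are those RefSeq gives for GRCm38.p6, read 5′ to 3′ on the strand of the gene, upstream of its start and free of exons. Capitals mark matches to GGGCGG (the GC box) or CCAAT (the CCAAT box), or to their reverse complements.
Col4a6, minus strand, chrX:141474077-141474326: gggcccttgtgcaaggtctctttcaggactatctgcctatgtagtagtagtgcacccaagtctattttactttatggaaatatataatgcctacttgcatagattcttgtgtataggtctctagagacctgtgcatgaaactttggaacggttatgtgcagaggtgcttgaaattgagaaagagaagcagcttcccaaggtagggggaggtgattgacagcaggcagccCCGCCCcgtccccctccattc
Col4a5, plus strand, chrX:141475169-141475384: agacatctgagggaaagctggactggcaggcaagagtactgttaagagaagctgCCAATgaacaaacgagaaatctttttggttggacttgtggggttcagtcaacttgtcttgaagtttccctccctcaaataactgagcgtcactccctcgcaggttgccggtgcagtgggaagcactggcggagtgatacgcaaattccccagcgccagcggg
Col4a4, minus strand, the bases up to the start of Col4a3, chr1:82586850-82586920: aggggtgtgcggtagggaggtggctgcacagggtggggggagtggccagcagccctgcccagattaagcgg
The window of Col4a6 held a GC box and that of Col4a5 a CCAAT box, and the 71 bases between Col4a4 and Col4a3 held neither. Neither window held TATAAA. Over the 38 windows that RefSeq gave for 35 of the collagen genes, 250 bases each, 57.9% held a GC box and 34.2% a CCAAT box, against 32.7% and 33.8% of 32851 such windows of all genes.

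Among the 27 other collagen genes, 23 were tested, 2 were called higher in KO, 9 were called lower and 12 were not called. That is 8.70% higher and 39.1% lower of those tested, against 17.1% and 20.3% of all genes tested. The lower calls include Col9a1, Col9a2 and Col25a1, which passed the filter on low counts only through the KO+NM1 libraries. Without KO+NM1 piece 01 the counts were 4 higher and 11 lower, against 21.7% and 25.1% of all genes. Col12a1 (ENSMUSG00000032332) had the largest log2 fold change of the 3 genes called higher with all pieces. It encodes type XII collagen, a fibril-associated collagen (FACIT) that coats type I fibrils, at chr9:79598991-79718831 of GRCm38. It was at 216, 128 and 307.5 CPM in KO and 13.8, 12.0, 9.14 and 14.5 CPM in KO+NM1. The lowest KO piece was above the highest KO+NM1 piece, and the level was 17.5-fold higher in KO, a log2 fold change of 4.13 (SE 0.31) with an adjusted p of 0.000348 by edgeR. Col7a1 (ENSMUSG00000025650), which forms the anchoring fibrils that tie epithelial basement membranes to the tissue beneath, was at 246, 181 and 209 CPM in KO and 12.8, 31.2, 19.1 and 45.8 CPM in KO+NM1. It did not overlap between the groups either and was 7.79-fold higher in KO, a log2 fold change of 2.96 (SE 0.41) with an adjusted p of 0.00171 by edgeR. Col12a1 and Col7a1 were called higher in each of 18 settings of the test, the main one included. No other collagen gene was.

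The region upstream of Col7a1 is shown as that of the largest rise for which RefSeq gave a window. Capitals mark matches, on either strand, to the CCAAT box, the GC box and the SMAD element (CAGACA).
Col7a1, plus strand, chr9:108953336-108953585 of GRCm38.p6: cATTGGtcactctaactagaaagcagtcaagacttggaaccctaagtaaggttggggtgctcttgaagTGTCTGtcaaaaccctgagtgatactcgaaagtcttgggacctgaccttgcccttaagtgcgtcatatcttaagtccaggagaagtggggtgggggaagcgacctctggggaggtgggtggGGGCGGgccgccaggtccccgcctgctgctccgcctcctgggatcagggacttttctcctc
It held each of the 3 motifs once. CAGACA stood in 23.7% of the collagen windows and 17.1% of all windows, and the AP-1 site TGANTCA stood in 2.63% and 6.75%.

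**Figure D3:**
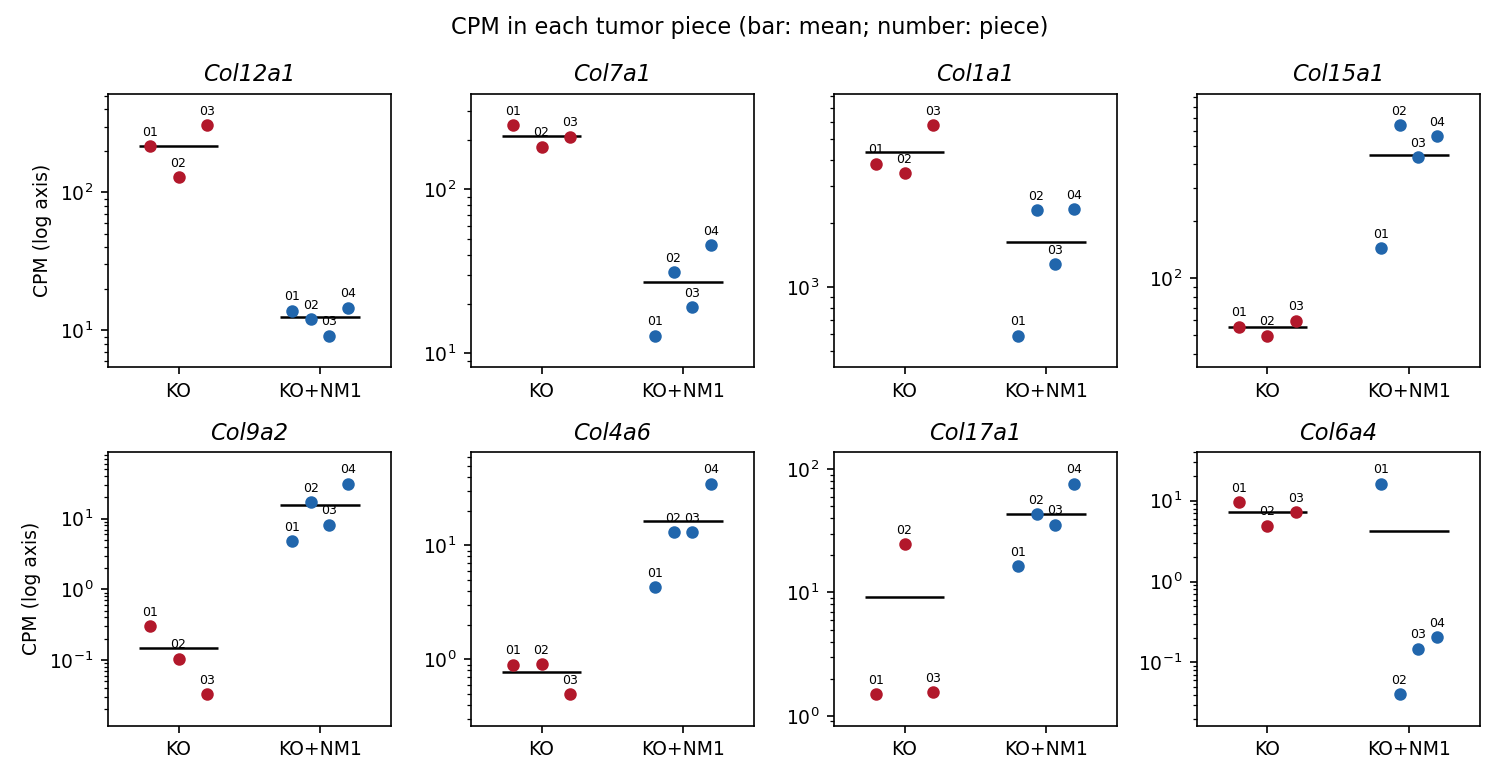
CPM of 8 collagen genes in each tumor piece on log axes, with the mean as a bar and the piece number beside each point. Col12a1, Col7a1 and Col1a1 do not overlap and are higher in KO, Col15a1, Col9a2 and Col4a6 do not overlap and are lower, and Col17a1 and Col6a4 overlap through KO piece 02 and KO+NM1 piece 01.

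Type IX collagen, a FACIT that decorates the type II fibrils of cartilage, was lower in KO in all 3 of its chains. Col9a1 (ENSMUSG00000026147) had 0, 0 and 1 counts in the KO libraries and 56, 171, 96 and 198 counts in the KO+NM1 libraries. That is 0, 0 and 0.033 CPM in KO and 2.04, 6.96, 4.74 and 8.14 CPM in KO+NM1, with an adjusted p of 0.000884 by edgeR. The ratio of summed counts, scaled to the summed library sizes, was 481-fold (95% interval 85.9 to 1.9e+04, for counting error only), and the fitted log2 fold change of -8.43 (SE 1.39) depends on the prior count. Col9a2 was at 0.300, 0.104 and 0.033 CPM in KO and 4.82, 17.1, 8.15 and 31.3 CPM in KO+NM1, a log2 fold change of -6.67 (SE 0.89) with an adjusted p of 0.00223 by edgeR. Col9a3 was expressed in both groups, at 3.10, 3.27 and 2.48 CPM in KO and 4.67, 15.2, 8.25 and 22.2 CPM in KO+NM1. Its log2 fold change was -2.09 (SE 0.51) with an adjusted p of 0.0172 by edgeR, and the call ended without KO piece 01 (adjusted p 0.0510 by edgeR) or KO piece 03 (adjusted p 0.0577 by edgeR). No piece overlapped between the groups for any of the 3 chains. Col9a1 and Col9a2 passed the filter on low counts only through the KO+NM1 libraries, where they are high. Their tests and lack of overlap are therefore no independent support for the fall. The type II chain they join in cartilage, Col2a1, had at most 3 counts in the KO+NM1 libraries. Of 8 chondrocyte markers, 4 were tested and 1 was called lower in KO, Cnmd, at 0 to 0.035 CPM in KO and 0.875 to 3.01 CPM in KO+NM1 (log2 fold change -6.24, SE 0.96, adjusted p 0.00121 by edgeR). Of all genes tested, 20.3% were called lower. Cnmd too passed the filter only through the KO+NM1 libraries, so its call is no independent support. The 8 markers summed to 55.8 to 90.1 CPM in KO and 27.7 to 105 CPM in KO+NM1. Sox9 alone held 41.8 to 87.4 CPM and 13.0 to 92.4 CPM of these sums. Hapln1 and Cnmd had 3 counts or fewer in every KO library, and Acan and Matn3 in every KO+NM1 library. The part of other cells in this result was not tested.

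The first start of Col9a1 and the start of Col15a1 are shown as those of the largest falls among the called members, by log2 fold change and by CPM. The motifs searched, on both strands, were the TATA box (TATAAA), the CCAAT box, the GC box, the AP-1 site (TGANTCA), the SMAD element and a SOX site (ACAATG). Neither window held any of the 6, so neither has capitals.
Col9a1, plus strand, chr1:24177360-24177609 of GRCm38.p6: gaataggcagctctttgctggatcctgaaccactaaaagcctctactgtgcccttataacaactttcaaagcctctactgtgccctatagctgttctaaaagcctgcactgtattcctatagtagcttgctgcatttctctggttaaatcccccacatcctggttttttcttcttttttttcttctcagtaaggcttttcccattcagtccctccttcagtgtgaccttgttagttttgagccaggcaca
Col15a1, plus strand, chr4:47207762-47208011 of GRCm38.p6: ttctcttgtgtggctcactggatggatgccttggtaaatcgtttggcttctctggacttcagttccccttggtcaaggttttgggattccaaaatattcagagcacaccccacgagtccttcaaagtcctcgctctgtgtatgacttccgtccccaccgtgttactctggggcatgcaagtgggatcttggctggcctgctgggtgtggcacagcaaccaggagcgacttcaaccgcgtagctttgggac
ACAATG stood in 2.63% of the collagen windows and 10.7% of all windows, and TATAAA in 13.2% and 12.4%. An absent match says only that these letters are not in the window.

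The multiplexins Col15a1 and Col18a1, collagens of basement membrane zones that carry heparan or chondroitin sulfate chains, had 1 of 2 genes called. Col15a1 (ENSMUSG00000028339) was at 55.4, 49.8 and 59.8 CPM in KO and 144, 643, 435 and 563 CPM in KO+NM1. The groups did not overlap, and the gene was 8.11-fold lower in KO, a log2 fold change of -3.02 (SE 0.46) with an adjusted p of 0.00305 by edgeR. Col18a1, the source of endostatin, was at 432, 228 and 268 CPM in KO and 59.6, 268, 180.0 and 242 CPM in KO+NM1. Its pieces overlapped, with a log2 fold change of 0.72 (SE 0.50) and an adjusted p of 0.261 by edgeR. Col15a1 is known from capillaries, muscle and fat, and the markers of endothelial cells summed to 216 to 243 CPM in KO and 1153 to 1734 CPM in KO+NM1, those of white adipocytes to 51.6 to 216 and 4589 to 3.466e+04 CPM, and those of skeletal muscle to 2168 to 1.908e+04 and 6.08 to 24.9 CPM. The part of these cells in the result was not tested.

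Type VI collagen, which forms beaded filaments around cells, had 1 of 6 genes called with all pieces, Col6a6, which was lower in KO. Without KO+NM1 piece 01, 4 of the 6 were called, Col6a4 and Col6a5 higher and Col6a2 and Col6a6 lower. Of all genes tested, 17.1% were called higher and 20.3% lower, or 21.7% and 25.1% without that piece. Col6a1 was at 669, 535 and 679.9 CPM in KO and 270.3, 935, 568 and 773 CPM in KO+NM1, with a log2 fold change of -0.02 (SE 0.40) and an adjusted p of 0.971 by edgeR. Col6a2 was at 377, 329 and 461 CPM in KO and 258, 899, 586 and 712 CPM in KO+NM1, with a log2 fold change of -0.66 (SE 0.40) and an adjusted p of 0.213 by edgeR, and -1.04 with an adjusted p of 0.00265 without KO+NM1 piece 01. Col6a3 was at 289, 131 and 228 CPM in KO and 112, 377, 369 and 381 CPM in KO+NM1, with a log2 fold change of -0.52 (SE 0.46) and an adjusted p of 0.387 by edgeR. The pieces overlapped for each of these 3 chains through KO+NM1 piece 01, and for Col6a1 through the others as well. The chains Col6a4, Col6a5 and Col6a6 can take the place of Col6a3 and lie side by side on chromosome 9, and as related genes their reads may be shared in part. Col6a4 was at 9.67, 4.90 and 7.26 CPM in KO and 16.3, 0.041, 0.148 and 0.206 CPM in KO+NM1, so that KO+NM1 piece 01 was the highest of all 7 and the other 3 KO+NM1 pieces were near 0. The difference was 0.80 on the log2 scale (SE 1.71) with all pieces, and 5.63 with an adjusted p of 8.68e-05 by edgeR without that piece. In the fit without KO+NM1 piece 01, Col6a4 passed the filter on low counts only through the KO libraries, where it is high. Its call there is therefore no independent support. Col6a5 was highest in the same piece, at 6.38 CPM, and at 0.692 to 1.19 CPM in the other 3, against 1.58 to 3.58 CPM in KO, with a log2 fold change of 0.23 (SE 0.85) with all pieces and 1.43 with an adjusted p of 0.0141 by edgeR without that piece. Col6a6 was at 1.07, 2.22 and 1.12 CPM in KO and 2.81, 5.41, 4.00 and 6.78 CPM in KO+NM1, did not overlap between the groups and had a log2 fold change of -1.69 (SE 0.43). Its adjusted p was 0.0176 by edgeR, and the call ended without KO piece 01 (adjusted p 0.0583 by edgeR) or KO piece 03 (adjusted p 0.0614 by edgeR).

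Of the 4 transmembrane collagens, Col13a1 and Col25a1 were called lower in KO, and Col17a1 and Col23a1 were not called. Col13a1, found at cell contacts and at the neuromuscular junction, was at 0.528 to 2.27 CPM in KO and 5.29 to 9.09 CPM in KO+NM1, with a log2 fold change of -2.44 (SE 0.49) and an adjusted p of 0.00786 by edgeR. Col25a1, known from neurons and developing muscle, had 0 to 3 counts in the KO libraries and 13 to 46 in the KO+NM1 libraries, with an adjusted p of 0.0120 by edgeR. It passed the filter on low counts only through the KO+NM1 libraries. Col17a1, the collagen of hemidesmosomes in the skin, was at 1.5, 24.7 and 1.55 CPM in KO and 16.4, 43.4, 35.5 and 76.4 CPM in KO+NM1. KO piece 02 was above KO+NM1 piece 01 and far above the other KO pieces, and the log2 fold change of -2.22 (SE 1.04) had an adjusted p of 0.139 by edgeR. Without KO piece 02 it was -4.93 with an adjusted p of 0.00591 by edgeR, and with all pieces Col17a1 was called lower by DESeq2, at -2.32 with an adjusted p of 0.0360, and by limma voom, at -3.56 with an adjusted p of 0.00338. Epithelial markers summed to 31.6, 899 and 54.5 CPM in KO pieces 01 to 03 and to 333, 1253, 1042 and 1675 CPM in KO+NM1 pieces 01 to 04, in the same order as Col17a1 within KO+NM1, and their part in this value was not tested.

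Further lower calls were Col20a1, a FACIT, and Col28a1, known from the sheath of peripheral nerves. Col20a1 was at 1.53 to 3.58 CPM in KO and 9.88 to 13.7 CPM in KO+NM1, with a log2 fold change of -2.22 (SE 0.32) and an adjusted p of 0.00226 by edgeR. Col28a1 was at 0.500, 2.82 and 1.35 CPM in KO and 2.59, 8.30, 7.21 and 7.40 CPM in KO+NM1, with overlap between KO piece 02 and KO+NM1 piece 01. Its log2 fold change was -2.03 (SE 0.63) with an adjusted p of 0.0389 by edgeR, and the call ended when any library but KO piece 02 or KO+NM1 piece 01 was left out, at adjusted p-values of 0.0739 to 0.107 by edgeR. Schwann cell markers, cells of that sheath, summed to 109.9 to 121 CPM in KO and 205 to 574 CPM in KO+NM1, and their part in the Col28a1 value was not tested. Col8a1, a chain of the hexagonal lattice under endothelia, was at 92.0, 130.4 and 146 CPM in KO and 19.5, 63.5, 81.8 and 77.1 CPM in KO+NM1, without overlap, and missed the call with a log2 fold change of 1.02 (SE 0.46) and an adjusted p of 0.102 by edgeR. Its partner Col8a2 was at 6.84 CPM or less in every piece, with a log2 fold change of 0.02 (SE 0.77). Col14a1 and Col16a1, FACITs of soft tissue, and Col23a1 were not called, with log2 fold changes of -0.73, -0.39 and -0.54 and adjusted p-values of 0.344, 0.519 and 0.317 by edgeR. Col14a1 was called lower without KO+NM1 piece 01, at -1.18 with an adjusted p of 0.0172 by edgeR.

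Levels of different genes were compared as CPM per kilobase of exon (RPKM), since longer genes collect more reads. In KO the highest were Col1a1 at 665 ± 195 RPKM (SD, n = 3), Col3a1 at 252 ± 83.3, Col1a2 at 185 ± 66.4 and Col6a1 at 143 ± 18.5. The next were Col5a3 at 89.9 ± 16.0 and Col4a1 at 72.8 ± 17.2. In KO+NM1 the order was Col3a1 at 334 ± 184 RPKM (SD, n = 4), Col1a1 at 248 ± 129, Col6a1 at 145 ± 65.5, Col1a2 at 141 ± 70.2, Col4a1 at 134 ± 55.8, Col4a2 at 122 ± 52.1, Col5a3 at 76.6 ± 43.6, Col6a2 at 73.7 ± 32.4 and Col15a1 at 70.3 ± 34.5. Col1a1 stood above the next gene by more than the SDs in KO, and Col6a1 above Col5a3, whereas the other neighbours named in KO, and all those named in KO+NM1, lay within each other's SDs. The union of annotated exons is longer than the longest transcript for some genes, and with the length of that transcript in its place Col1a2 stood at 430.2 RPKM and Col3a1 at 445 RPKM in KO. In KO+NM1 it placed Col1a2, at 328 RPKM, above Col1a1, at 274 RPKM, and Col6a1, at 155 RPKM.

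Ratios between partner chains were taken within each piece from reads per kilobase, which removes a change that both chains share. They are given as a description, without a test. Reads per kilobase of Col1a1 over those of Col1a2 were 3.42, 4.12 and 3.45 in KO and 1.70, 1.88, 1.65 and 1.72 in KO+NM1, 2.11 times higher in KO. The level of this ratio rests on the length given to Col1a2, 12426 bases for its union of exons and 5348 for its longest transcript, and with the longest transcripts the means were 1.74 in KO and 0.827 in KO+NM1. KO+NM1 piece 01, at the lowest level of both genes, had the same ratio as its neighbours. The same ratio of Col4a1 to Col4a2 was 1.28 ± 0.042 (SD, n = 3) in KO and 1.10 ± 0.027 (SD, n = 4) in KO+NM1, a small difference with no overlap. For Col4a5 over Col4a6 it was 13.0, 10.0 and 18.5 in KO and 2.11, 1.57, 1.52 and 1.12 in KO+NM1, the widest difference of the pairs. For Col6a1 over Col6a2 it was 3.09 ± 0.29 (SD, n = 3) in KO and 1.97 ± 0.091 (SD, n = 4) in KO+NM1, and for Col5a1 over Col5a2 it was 0.937 ± 0.046 (SD, n = 3) and 1.14 ± 0.10 (SD, n = 4), also without overlap. The pairs Col6a3 and Col6a1, Col8a1 and Col8a2, and Col11a1 and Col11a2 overlapped between the groups. Genes of high GC content had lower log2 fold changes as a whole, with a median of -0.30 in the top decile of GC content, which held 13 of the 39 tested collagen genes, and 0.11 in the lowest decile. Col1a1, with 58.9% GC, lies in the top decile and Col1a2, with 55.7%, in the next, and the part of GC content in the ratios was not tested.

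**Figure D4:**
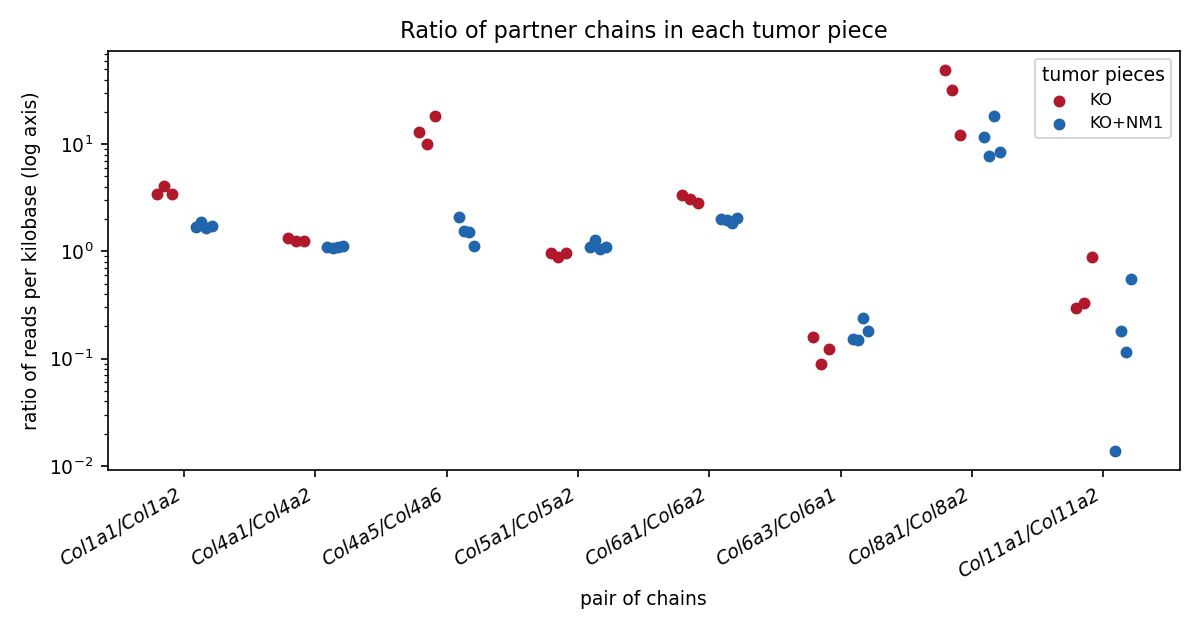
Ratio of reads per kilobase of 8 pairs of partner chains in each tumor piece, on a log axis, with KO and KO+NM1 pieces side by side. The groups do not overlap for Col1a1/Col1a2, Col4a1/Col4a2, Col4a5/Col4a6, Col5a1/Col5a2 and Col6a1/Col6a2.

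The collagen genes together took 1.42%, 1.14% and 1.86% of all counts in KO and 0.452%, 1.54%, 0.923% and 1.68% in KO+NM1, and the groups overlapped. Within the collagen counts the make-up did not overlap between the groups for several parts. Col1a1 took 31.8% ± 2.47 (SD, n = 3) of the collagen counts in KO and 13.2% ± 1.43 (SD, n = 4) in KO+NM1. The type IV genes took 6.98% ± 1.79 (SD, n = 3) and 15.7% ± 2.45 (SD, n = 4), and Col15a1 took 0.413% ± 0.066 (SD, n = 3) and 3.60% ± 0.22 (SD, n = 4). Col12a1 took 1.54% ± 0.28 (SD, n = 3) and 0.142% ± 0.12 (SD, n = 4), or 0.0793% ± 0.0080 (SD, n = 3) without KO+NM1 piece 01, and Col7a1 took 1.60% ± 0.35 (SD, n = 3) and 0.233% ± 0.068 (SD, n = 4). In each of these parts KO+NM1 piece 01 lay on the side of its group, although it had the smallest collagen share of the 7 libraries.

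**Figure D5:**
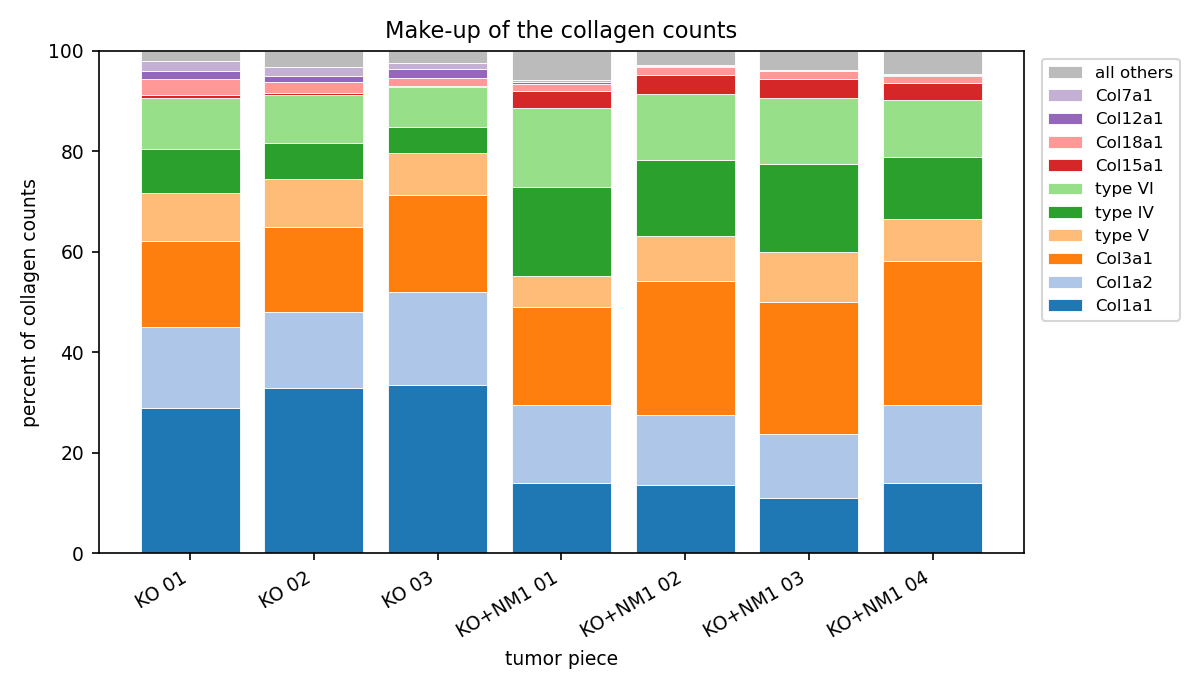
Percent of the collagen counts taken by single genes and types in each tumor piece, as stacked bars that sum to 100%. Col1a1 takes 29.0% to 33.5% in the KO pieces and 11.1% to 14.1% in the KO+NM1 pieces, and type IV takes 5.13% to 8.71% and 12.4% to 17.6%.

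The genes that fold, cut, cross-link and bind collagen were followed in 6 lists. Counts of calls in them stand against 17.1% higher and 20.3% lower of all genes tested, or 21.7% and 25.1% without KO+NM1 piece 01. The lists are short, and several of their counts lie near these shares. Of 20 genes of collagen folding and modification, all tested, 4 were called higher in KO, 2 were called lower and 14 were not called, with a median log2 fold change of 0.42. Plod2, the lysyl hydroxylase that prepares the ends of collagen for cross-linking, was at 33.5 to 54.1 CPM in KO and 5.33 to 8.47 CPM in KO+NM1, with a log2 fold change of 2.65 (SE 0.24) and an adjusted p of 0.000501 by edgeR. Fkbp10, its chaperone partner, had a log2 fold change of 1.81 (SE 0.21) with an adjusted p of 0.000894 by edgeR. The other higher calls were P4ha1 and P4ha3, subunits of prolyl 4-hydroxylase. Colgalt2, a collagen galactosyltransferase, fell by 2.89 on the log2 scale (SE 0.25, adjusted p 0.000517 by edgeR), and P3h2, a prolyl 3-hydroxylase that acts on type IV collagen, fell by 1.56 (SE 0.30, adjusted p 0.00581 by edgeR). Of 7 tested genes of procollagen processing, Adamts14, a protease that removes the amino-terminal propeptide, was called higher with a log2 fold change of 3.01 (SE 0.26, adjusted p 0.000421 by edgeR), and Pcolce2, an enhancer of carboxyl-terminal cleavage, was called lower at -2.82 (SE 0.64, adjusted p 0.0145 by edgeR), as was Tll1. The median of that list was 0.27, and without KO+NM1 piece 01 its lower calls were 3.

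Of 6 cross-linking enzymes, the lysyl oxidases and peroxidasin, 3 were called higher in KO and none lower, with a median log2 fold change of 0.72. Loxl4 was at 35.3 to 43.5 CPM in KO and 0.488 to 2.38 CPM in KO+NM1, a log2 fold change of 5.01 (SE 0.49) with an adjusted p of 0.000697 by edgeR. Loxl2 and Loxl3 were called at 1.42 (SE 0.49) and 1.09 (SE 0.23), and without KO+NM1 piece 01 both fell under a 2-fold change, at 0.98 and 0.85, which left 1 higher call and 1 lower call, Loxl1, in the list. The higher calls were also 1 without KO piece 03 or without KO+NM1 piece 03, and at most 2 with any 1 library left out. Lox itself had a log2 fold change of -0.19 (SE 0.51). Of 10 small proteoglycans that bind fibrils, 5 were called lower and none higher, with a median of -1.71. The lower calls were 7 without KO+NM1 piece 01 and 3 when KO piece 01 or 02 or KO+NM1 piece 02 or 04 was left out. Among them Prelp had a log2 fold change of -4.05 (SE 0.55, adjusted p 0.00250 by edgeR), and Dcn, decorin, which coats type I fibrils, was at 175 to 264 CPM in KO and 501 to 2344 CPM in KO+NM1, at -2.72 (SE 0.48, adjusted p 0.00544 by edgeR). Of 9 tested collagen receptors, 2 were called higher and none lower, with a median of 0.79, and without KO+NM1 piece 01 the lower calls were 2, Itga1 and Ddr1. The higher calls were 1 when any KO piece or KO+NM1 piece 02 or 03 was left out. Ddr2, the discoidin domain receptor for fibrillar collagen, had a log2 fold change of 1.38 (SE 0.30, adjusted p 0.00820 by edgeR). Lair1, an inhibitory collagen receptor of white blood cells, was at 29.1 to 42.5 CPM in KO and 9.63, 1.26, 0.494 and 0.452 CPM in KO+NM1. Its log2 fold change was 3.57 (SE 1.05, adjusted p 0.0308 by edgeR). Macrophage markers summed to 3079 to 3524 CPM in KO and 2454, 751, 611 and 841 CPM in KO+NM1. KO+NM1 piece 01 was the highest of its group for both, but Lyz2 alone made 1898 CPM of its marker sum. Cd68, Csf1r, C1qa and C1qb were also highest of the KO+NM1 pieces there, while Adgre1, Mrc1 and Cd163 were lowest there. The part of macrophages in the Lair1 value was not tested.

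The partners of type IV collagen in basement membranes, laminin chains, nidogens, heparan sulfate proteoglycans and Sparc, had 8 of 16 genes called lower in KO and none higher, with a median log2 fold change of -1.34. Without KO+NM1 piece 01, 14 of the 16 were called lower, and with 1 library left out the lower calls ran from 6 to 14. Lamc3 was at 0.767 to 1.95 CPM in KO and 6.75 to 27.7 CPM in KO+NM1, a log2 fold change of -4.02 (SE 0.54) with an adjusted p of 0.00221 by edgeR. Lamb3, a chain of the laminin under epithelia, was at 0.967, 5.77 and 1.72 CPM in KO, highest in KO piece 02 as was Col17a1, and at 26.1 to 46.0 CPM in KO+NM1, a log2 fold change of -3.60 (SE 0.57) with an adjusted p of 0.00413 by edgeR. Neither gene overlapped between the groups.

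Of 10 fibroblast markers, led by Vim and Postn, 1 was called higher in KO, Vim, and 5 were called lower (7 without KO+NM1 piece 01). Of all genes tested, 17.1% were called higher and 20.3% lower, or 21.7% and 25.1% without that piece. The fibroblast markers summed to 2898 to 3423 CPM in KO and 1759 to 3927 CPM in KO+NM1. Vim alone held 2319 to 2875 CPM and 1047 to 1327 CPM of these sums. Fibroblast markers were thus present in every piece, whether from the injected cells or from the host, which cannot be told apart. Sums for the other cell types named above stand beside the genes they were set against, led by Pecam1 and Cdh5 for endothelial cells, Rgs5 and Acta2 for pericytes and smooth muscle, Fabp4 and Cfd for white adipocytes, Myh4 and Acta1 for skeletal muscle, Pmp22 and Mbp for Schwann cells, Krt18 and Epcam for epithelial cells, Lyz2 and C1qa for macrophages, and Sox9 and Comp for chondrocytes. All 8 endothelial, 10 adipocyte and 6 of 8 pericyte and smooth muscle markers were called lower in KO, as were 6 of 8 Schwann cell and 3 of 8 epithelial markers. Of 10 skeletal muscle markers, 9 were tested and all 9 were called higher, as were 6 of 8 macrophage markers. Among these markers, Myh4, Ckm, Pvalb and Cacna1s passed the filter on low counts only through the KO libraries. Lep and Pck1 passed it only through the KO+NM1 libraries. Such calls are no independent support. Osteoblast markers, led by Alpl and Runx2, summed to 22.6 to 30.9 CPM in KO and 27.2 to 71.8 CPM in KO+NM1, with 2 called higher and 1 lower, and Ibsp and Bglap2, which define mature osteoblasts, had 3 counts or fewer in every library. The part of these cells in the collagen differences was not tested.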

How the data were processed

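RNA was sequenced from 3 KO and 4 KO+NM1 tumor pieces. Per the labels and the methods, the authors used Trimmomatic 0.36 for trimming, HISAT2 2.0.4 for alignment to GRCm38, SAMtools 0.1.19 for sorting and HTSeq-count for counting. The deposited values are these raw counts for 46603 Ensembl genes, 24088309 to 28326568 per library. The strand option and the annotation release are not given in the sources used here. Groups followed the sample titles.

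Symbols and coordinates came from GENCODE M21, and promoter windows from RefSeq (GRCm38.p6). With edgeR 4.0.16 in R 4.3.3, low genes were removed by filterByExpr (minimum count 10), libraries were scaled by TMM and genes were tested by the quasi-likelihood test with Benjamini-Hochberg adjustment over 16887 genes. The test was checked on simulated data. Since the labels do not name separate animals, p-values measure only the spread between pieces. The members, the gene lists and the marker lists were chosen with earlier results of these data known. Full values were given for the 4 members of highest reads per kilobase in each group, up to 3 largest rises and falls among called members of at least 1 CPM, and their partner chains, and for up to 2 rises and falls of at least 5 CPM per pathway list. Values of other members are added for completeness. Of each marker list the 2 genes of highest CPM are named. Tried in place of these were library size alone, upper-quartile factors, DESeq2's size factors, mitochondrially encoded genes left out, other filters, DESeq2 1.42.0, limma 3.58.1 (voom with sample weights), glmTreat, the adjusted p alone, the replicate block and each library left out.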

Additional observations from a re-analysis of the deposited data

Results flagged for a closer look

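In 3 of the 51 collagen values tested in the 4 KO+NM1 pieces, 1 piece lay far from the other 3, where chance gives about 1 in 20. It was KO+NM1 piece 01 each time. For Col6a3 the gap to the nearest piece was 0.953 of the whole range, with that piece at 112 CPM and the others at 369 to 381. For Col6a4 it was 0.990, with that piece at 16.3 CPM and the others at 0.041 to 0.206, and for Col6a5 it was 0.912, with that piece at 6.38 CPM and the others at 0.692 to 1.19. The piece was low for Col6a3 and high for Col6a4 and Col6a5.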

How the results depend on the processing

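Col12a1 and Col7a1 were called higher, and Col4a6, Col13a1, Col15a1, Col20a1 and Col27a1 lower, in each of the 18 settings that gave a new fit, the main one included. Col9a1 and Col9a2 were called lower in each of the 17 that tested them. The filter of 10 counts in every library removed both through their KO counts. Both passed the main filter only through the KO+NM1 libraries, so these calls are no independent support for the fall. The count of collagen genes higher in KO, 3, became 5 with library size alone and 6 with limma voom, and 2 to 6 with 1 library left out. The count of lower genes, 11, became 17 with limma voom, and 8 to 18 with 1 library left out. The highest of each came without KO+NM1 piece 01. DESeq2 gave 4 and 15, glmTreat 2 and 8, and the filter of 10 counts in every library 2 and 9. The median log2 fold change of all genes moved to -0.10 with DESeq2's size factors, -0.16 with upper-quartile factors and 0.17 with library size alone.

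Direction turned only for members that were not called. Col3a1 was at 0.097 under the replicate block. Col1a2 ran from -0.040 to 0.611 with 1 library left out, Col5a2 from -0.109 to 0.524, and Col6a5 from -0.141 to 1.433. Col5a3 was at -0.246 by voom and from -0.238 to 0.495 with 1 library left out. Col6a1 was at 0.185 with library size alone, at 0.253 under the replicate block, and from -0.398 to 0.205 with 1 library left out. Col16a1 was at 0.162 under the replicate block and from -0.777 to 0.039 with 1 left out. Col5a1 and Col8a2 were at -0.072 and -0.083 with DESeq2's size factors, -0.132 and -0.139 with upper-quartile factors, -0.063 and -0.073 with every gene of at least 1 count, -0.015 and -0.027 with 10 counts in every library, -0.072 and -0.084 by DESeq2, and -0.188 and -0.100 by voom. With 1 library left out they ran from -0.394 to 0.215 and from -1.091 to 0.339. The difference in the share of reads of the other collagens was -0.020 percentage points without mitochondrially encoded genes and -0.040 to 0.038 with 1 library left out. The cause was not tested.

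With the replicate number as a block, 3 collagen genes were higher and 9 lower. Correlations of same-numbered pieces were 0.0802, 0.102 and -0.0165, so the numbers were not taken to pair the pieces, and KO piece 02 correlated best with KO+NM1 piece 04, at 0.109. Depth does not limit the abundant chains, while Col4a3, Col24a1, Col25a1 and the 5 untested genes rest on few counts.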
